A study of Homo sapiens with 6 samples.

Results

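Cholesterol and fatty acid synthesis genes were followed in PaTu8988t cells, an established human cell line from pancreatic ductal adenocarcinoma (PDAC), with and without *SAMD1*. They are 38 genes chosen by symbol for their place in these pathways, of 20347 gene symbols measured by RNA-seq, and all 38 were expressed highly enough to be tested. Control cells (3 replicates) had received a CRISPR/Cas9 vector with an unspecific control guide, and *SAMD1* KO cells (3 clonally independent clones) the same vector with guides against *SAMD1*, a repressor that binds CpG islands. Both groups were selected with puromycin, and the line was grown in high-glucose DMEM with fetal bovine serum. Whether the groups were grown at the same time or with the same serum lot is not stated. The spread among KO libraries is a spread between single-cell clones, whereas that among control libraries is a spread between replicates of control cells. Whether the control replicates share 1 clone is not given in the sources used here.

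Cells make cholesterol from acetyl-CoA through the mevalonate pathway, and they make fatty acids from the same acetyl-CoA through malonyl-CoA. Both routes are driven by the SREBP transcription factors, which are held in the endoplasmic reticulum by SCAP and the INSIG proteins while sterols are plentiful and are cut free when sterols run low. Desaturases and elongases then shape the fatty acids, and acyl-CoA synthetases activate them for use in lipids or for oxidation. Pancreatic cancer cells are known for an active lipid metabolism, fed by both synthesis and uptake.

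The libraries held 35589477 to 45172216 reads counted on genes, so that counting noise was small for these genes and the number of libraries set the precision. *SAMD1* itself fell in the KO libraries (normalized counts of 2231 to 2382 in control and 824.8 to 1082 in KO cells). Of 6 epithelial and ductal markers, *KRT8* had normalized counts of 32903 to 35575 in control and 34021 to 57041 in KO libraries, *KRT18* 29200 to 29771 and 33001 to 50795, and *EPCAM* 504.4 to 558.7 and 422.2 to 626.4. *KRT7* rose, with 26.4 to 34.3 in control and 78.1 to 90.7 in KO libraries (log2 fold change 1.46, limma adjusted p = 0.00392), and *KRT18* did not pass the test (log2 fold change 0.52, limma adjusted p = 0.0598), whereas *KRT19* was listed at 0 in all 6 and *CDH1* stayed at 24.0 to 45.8. Of 8 markers of immune, endothelial and stromal cells, *PTPRC*, *CD3E*, *LYZ*, *COL1A2* and *DCN* did not exceed 5.87, and the summed level of all 8 was 93.8 to 108 in control and 56.4 to 89.9 in KO libraries. The 3 that were tested, *PECAM1*, *VWF* and *COL1A1*, had log2 fold changes of −1.04 to −0.10, and 0 passed the limma test.

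Across the 38 genes, 4 rose in *SAMD1* KO cells and 0 fell. The 4 were *ACSS2*, *SCD*, *ACSL1* and *ACSL3*, which supply acetyl-CoA, desaturate fatty acids or activate them. None of the 16 cholesterol synthesis enzymes and none of the 5 SREBP regulators passed the limma test in this comparison of all 6 libraries. A gene is said to have risen or fallen here at a limma p below 0.05 after Benjamini-Hochberg adjustment over all 12773 tested genes. By that rule 8.32% of all tested genes rose and 4.7% fell, so the 4 risers of 38 were near the share among all genes. At an unadjusted limma p below 0.05, 9 were higher, where 16.1% of all tested genes were, and 3 lower, against 13.5%. By the cut-off of the study (log2 fold change beyond 0.5 and unadjusted p below 0.01), 1 member was called higher, *ACSS2*, against 5.77% of all tested genes, and 0 were called lower, against 2.08%. edgeR also gave 4 and 0, against 8.68% and 4.55% of all genes, and DESeq2 gave 6 and 2, against 10.9% and 7.08%. Relative to the 20 tested genes on each side of each gene, 6 members rose and 1 fell, against 9.48% and 6.95%.

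The KO clones lay above every control replicate for 10 members (19.2% of all tested genes) and below every one for 5 (18.6%), so 15 of 38 did not overlap, where 37.8% of all tested genes did not. The median log2 fold change of the 38 was 0.08, against −0.0059 over all tested genes, with 27 values above 0 and 11 below. Over all 12773 tested genes 6227 were above 0 and 6546 below. The clones differed, with 22 members below the control mean in clone 1, 13 in clone 2 and 8 in clone 3. In bulk RNA a higher value cannot be told apart as more RNA per cell or more cells that express the gene. The limma tests set each difference against a spread pooled over these 6 libraries, from control replicates and KO clones alike. Their p-values therefore do not rest on a spread between clones alone. The smallest p that an exact permutation test of 3 against 3 allows is 0.1, which is why the fits across all genes were used.

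**Figure D1:**
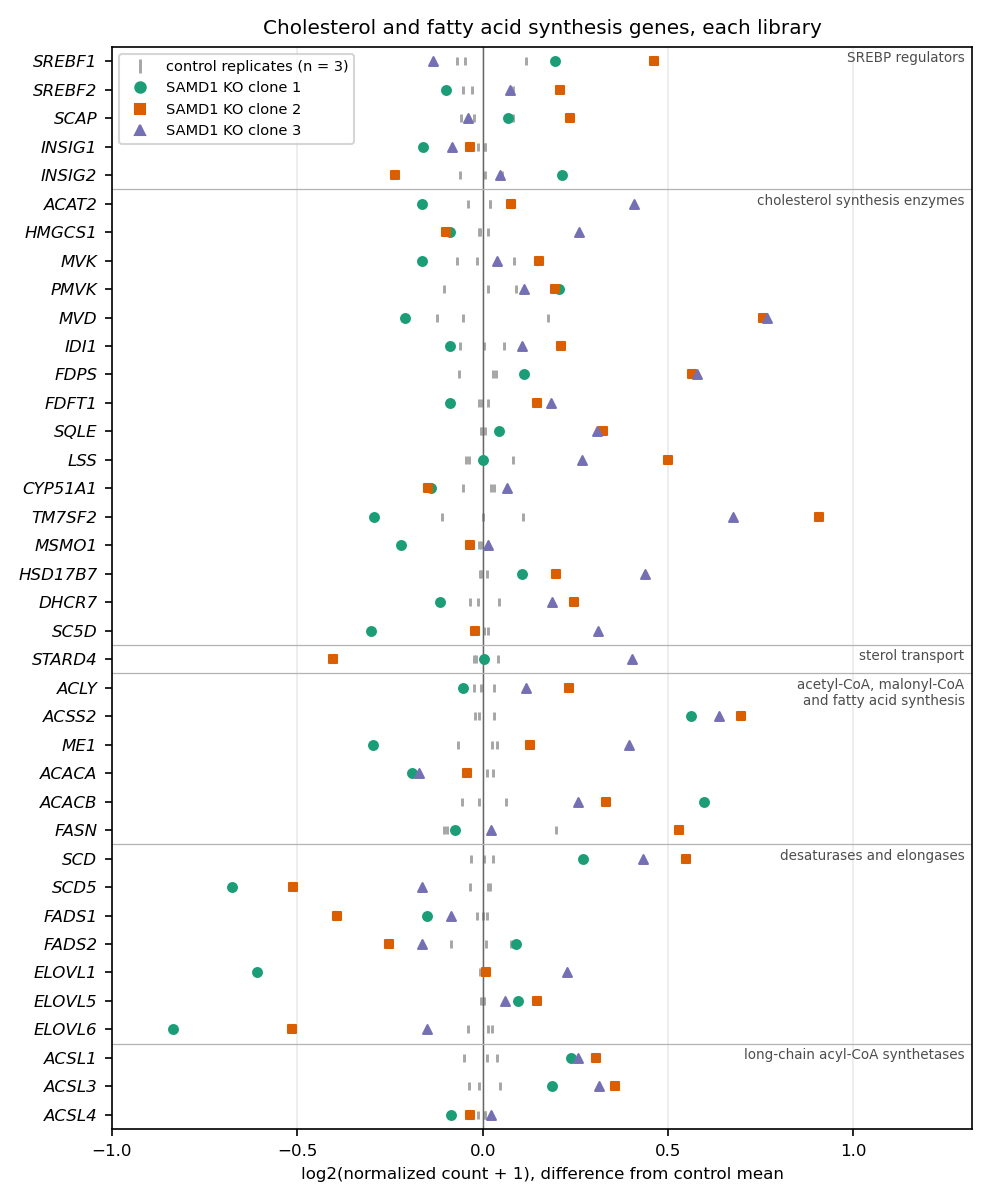
Difference of each library from the control mean on the log2(normalized count + 1) scale (x axis) for the 38 genes (y axis), grouped by role. Grey bars are the 3 control replicates and coloured symbols the 3 *SAMD1* KO clones. All 3 clones lie to the right of the controls for *ACSS2*, *SCD*, *ACSL1* and *ACSL3*, while clone 1 lies to the left of the other clones for 27 of the 38 genes.

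The sequences before the 4 genes that rose are shown because SAMD1 is known to bind unmethylated CpG-rich DNA with the letters GCGC, and because SREBP and NF-Y, its usual partner, read the sterol regulatory element and the CCAAT box. Each window holds 250 bases before and 50 bases after the start of the transcript, 5′ to 3′ along the gene, from RefSeq on GRCh38.p14. Capitals mark GCGC, which reads the same on both strands, and CCAAT on either strand.

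ACSS2 (chr20:34876362-34876661, plus strand): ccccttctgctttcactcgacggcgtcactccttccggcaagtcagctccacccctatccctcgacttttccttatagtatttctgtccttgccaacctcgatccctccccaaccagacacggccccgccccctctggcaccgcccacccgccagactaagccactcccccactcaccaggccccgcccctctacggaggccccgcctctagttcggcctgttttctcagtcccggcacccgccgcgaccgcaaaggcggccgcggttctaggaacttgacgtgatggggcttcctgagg
SCD (chr10:100346983-100347282, plus strand): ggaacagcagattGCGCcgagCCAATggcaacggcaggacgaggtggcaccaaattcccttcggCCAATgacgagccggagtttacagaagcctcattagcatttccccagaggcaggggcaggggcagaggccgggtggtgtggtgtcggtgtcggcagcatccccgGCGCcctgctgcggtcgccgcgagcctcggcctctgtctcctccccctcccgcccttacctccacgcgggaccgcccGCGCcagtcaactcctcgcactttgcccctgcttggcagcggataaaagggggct
ACSL1 (chr4:184825919-184826218, minus strand): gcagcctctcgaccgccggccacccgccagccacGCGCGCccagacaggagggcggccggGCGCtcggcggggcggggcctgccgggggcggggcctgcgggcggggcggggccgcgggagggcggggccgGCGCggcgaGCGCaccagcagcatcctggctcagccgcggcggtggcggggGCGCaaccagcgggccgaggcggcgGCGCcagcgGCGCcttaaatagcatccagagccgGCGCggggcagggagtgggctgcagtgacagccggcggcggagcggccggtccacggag
ACSL3 (chr2:222860786-222861085, plus strand): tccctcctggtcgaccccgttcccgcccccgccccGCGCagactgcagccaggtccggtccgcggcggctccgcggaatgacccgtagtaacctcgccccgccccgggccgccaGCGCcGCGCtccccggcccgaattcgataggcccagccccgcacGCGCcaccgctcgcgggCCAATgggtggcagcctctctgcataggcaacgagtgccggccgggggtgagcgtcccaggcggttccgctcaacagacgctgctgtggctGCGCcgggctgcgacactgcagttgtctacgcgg

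The *ACSS2* window shown, for the gene with the largest rise, held none of these letters. For *ACSS2* 2 starts were listed and for *ACSL1* 5, and only the window at the start of the reference transcript is described. The *SCD* window held 3 GCGC and 2 CCAAT, that of *ACSL1* 9 GCGC, and that of *ACSL3* 5 GCGC and 1 CCAAT, with overlapping matches counted separately. Windows at the start of the reference transcript were found for 33 of the 38 genes. GCGC was in 31 of these 33 (93.9%) and in 57.2% of all 35116 promoter windows of this length. CCAAT was in 20 of the 33 (60.6%) and in 34.6% of all windows. A sterol regulatory element, searched as TCACNCCAC on both strands, was in 1 of the 33, that of *SREBF2*, and in 1.13% of all windows. The set of all windows was not limited to tested genes and can hold several starts of a gene. Shares among the tested genes alone were not computed, so a difference from all windows is not one particular to these pathways. GCGC stood in the windows of genes that rose and of genes that did not, such as *INSIG1* (8 matches) and *MVD* (7 matches). These are matches of letters only, and binding was not measured here.

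The levels of the 38 genes spanned 3 orders of magnitude. In RPKM, which scales reads to transcript length and library size, *SCD*, the main stearoyl-CoA desaturase, stood first with 1082 ± 25.0 (SD, n = 3) in control and 1482 ± 172 (SD, n = 3) in KO cells. *FDPS*, which makes farnesyl diphosphate, came next with 639 ± 24.6 in control and 882 ± 165 in KO cells. *ACACB*, the acetyl-CoA carboxylase of the mitochondrial surface, was lowest, with 0.929 ± 0.0375 in control and 1.25 ± 0.145 in KO cells.

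Related genes were expressed unequally per transcript length. *ACACA*, the cytosolic carboxylase that feeds fatty acid synthesis, stood at 8.59 ± 0.227 RPKM in control cells, above *ACACB*. *INSIG1* stood at 116 ± 0.717 RPKM and *INSIG2* at 12.1 ± 0.490 RPKM in control cells. *SREBF2*, the SREBP gene of the cholesterol branch, stood at 65.7 ± 3.46 RPKM, and *SREBF1*, that of the fatty acid branch, at 51.3 ± 3.78 RPKM. In KO cells the *SREBF* genes were at 70.3 ± 8.84 and 60.0 ± 13.2 RPKM. *SCD5*, the second desaturase gene, was at 16.0 ± 0.320 RPKM in control cells, far below *SCD*.

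**Figure D2:**
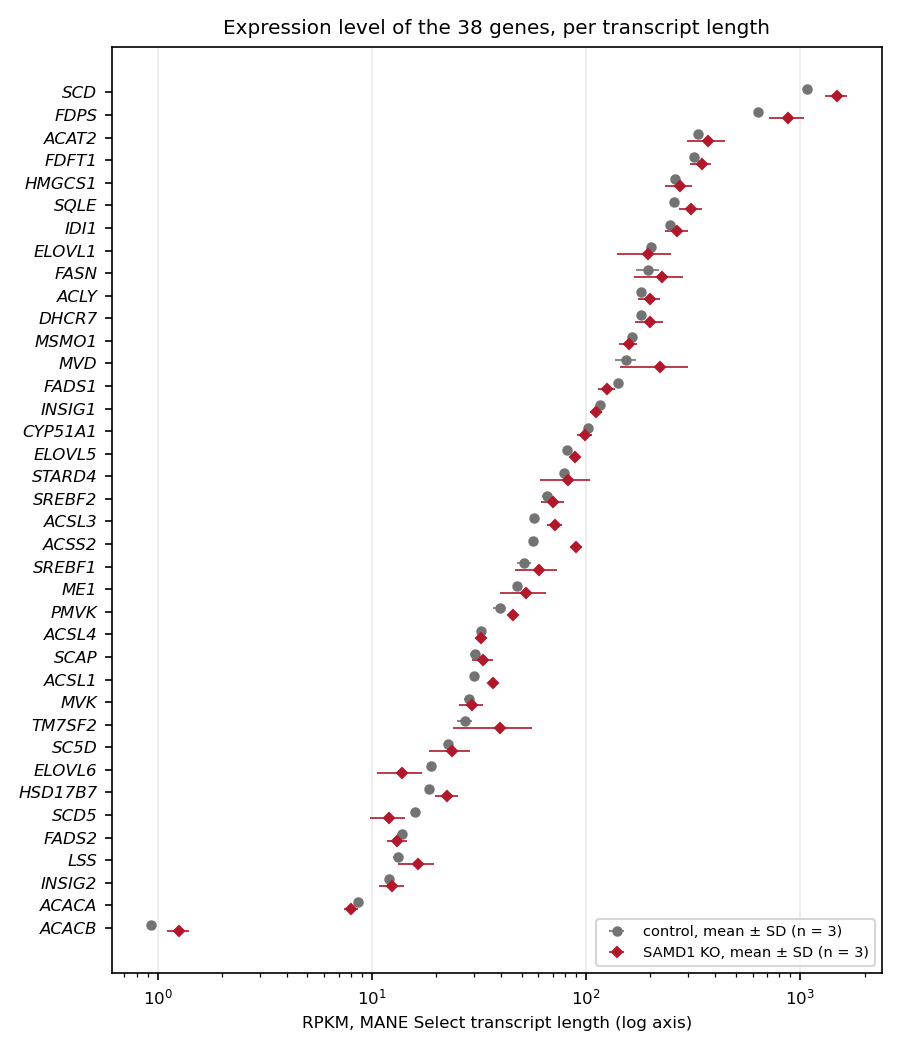
Level of each of the 38 genes (y axis, in order of the control level) in RPKM over the length of the MANE Select transcript (x axis, log scale). Symbols are means and bars the SD of 3 libraries. *SCD* and *FDPS* stand first in both groups, and *ACACB* last.

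The regulators of the pathway did not pass the test. *SREBF1* had normalized counts of 9900, 11101 and 9765 in control replicates 1 to 3 and 11720, 14114 and 9335 in KO clones 1 to 3. Clone 2 was the highest library and clone 3 the lowest, so the groups overlapped. The estimate was 0.17 on the log2 scale (95% interval −0.16 to 0.51, limma adjusted p = 0.449). *SREBF2* gave 13507, 14839 and 13751 in control cells and 13096, 16190 and 14743 in the clones. Its KO clones lay on both sides of the controls, with a log2 fold change of 0.06 (95% interval −0.14 to 0.26, limma adjusted p = 0.677).

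*SCAP*, the escort of SREBP to the Golgi, gave 5181, 5568 and 5050 in control cells and 5518, 6198 and 5122 in the clones. Only clone 2 was above all controls, and the log2 fold change was 0.09 (95% interval −0.10 to 0.28, limma adjusted p = 0.50). *INSIG1*, a retention factor that is itself a target of SREBP, gave 13830, 13653 and 13849 in control cells and 12331, 13453 and 13002 in the clones. All 3 clones were below all controls, by little, and the value did not pass the test (log2 fold change −0.09, 95% interval −0.21 to 0.03, limma adjusted p = 0.278). *INSIG2*, its less abundant relative, gave 1677, 1756 and 1814 in control cells and 2029, 1485 and 1806 in the clones. Clone 1 was the highest and clone 2 the lowest of the 6 libraries (log2 fold change 0.01, 95% interval −0.25 to 0.27, limma adjusted p = 0.967). The 95% intervals of the 5 regulators reached no further than −0.25 and 0.51 on the log2 scale.

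The 16 enzymes of cholesterol synthesis had a median log2 fold change of 0.11, with a range of −0.08 to 0.44, and 0 rose or fell. All 3 KO clones were above all controls for 4 of them, *PMVK*, *FDPS*, *SQLE* and *HSD17B7*, and below all controls for 0. Among all tested genes 19.2% lay above and 18.6% below in this way. *FDPS* came closest to the threshold. It gave normalized counts of 37791, 37618 and 35247 in control cells and 39796, 54562 and 54993 in the clones. Clones 2 and 3 were far above the controls and clone 1 was just above them (log2 fold change 0.42, standard error 0.13, limma adjusted p = 0.0732). DESeq2 gave *FDPS* an adjusted p of 0.00813. Relative to their neighbours on the chromosome, *FDPS* (log2 fold change 0.41, limma adjusted p = 0.0498) and *HSD17B7* (0.30, limma adjusted p = 0.0314) rose. *SQLE*, the squalene epoxidase and a rate-limiting step of the pathway, gave 31145, 31211 and 31424 in control cells and 32239, 39163 and 38709 in the clones, with clone 1 again just above the controls and clones 2 and 3 farther above (log2 fold change 0.23, limma adjusted p = 0.122).

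For some enzymes the KO clones lay on both sides of the controls. *TM7SF2*, a sterol C14 reductase, was the single member whose KO clones spanned more than a 2-fold range, 2.3-fold between the highest and lowest. It gave normalized counts of 1747, 1882 and 1619 in control cells and 1424, 3277 and 2787 in the clones. Clone 1 was below all controls and clones 2 and 3 above them, and the groups overlapped (log2 fold change 0.43, standard error 0.28, limma adjusted p = 0.347). *MVD*, *LSS*, *STARD4* and *ELOVL1* have a narrower range and were singled out after their values were seen. *MVD*, the mevalonate diphosphate decarboxylase, gave 10821, 12701 and 10313 in control cells and 9717, 18987 and 19107 in the clones. As for *TM7SF2*, clone 1 was lowest of all 6 libraries and the other clones highest (log2 fold change 0.44, limma adjusted p = 0.289). *LSS*, the lanosterol synthase, gave 2575, 2797 and 2559 in control cells and 2644, 3736 and 3179 in the clones, with clone 1 among the controls (log2 fold change 0.26, limma adjusted p = 0.203).

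Clone 1 was the lowest of the clones for 13 of the 16 cholesterol enzymes (81.3%) and for 27 of all 38 members (71.1%), where it was the lowest for 33.7% of all tested genes. The median log2 difference of the 16 enzymes from the control mean was −0.10 in clone 1, 0.20 in clone 2 and 0.26 in clone 3. Over all 38 members these medians were −0.09, 0.17 and 0.15, against −0.0033, 0.0010 and −0.0036 over all tested genes. The median coefficient of variation of the 38 was 2.66% among controls and 11.5% among KO clones, against 4.06% and 10.5% for all tested genes.

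With KO clone 1 left out, 11 members rose and 0 fell, where 11.3% and 8.83% of all tested genes did. The 7 that joined the 4 were all cholesterol enzymes, namely *MVD*, *FDPS*, *SQLE*, *LSS*, *TM7SF2*, *HSD17B7* and *DHCR7*. Clone 1 was the lowest of the clones for each of these 7, so leaving it out was bound to raise their KO means. Their gain restates the order of the clones and is no separate support for a rise. *TM7SF2* then had a log2 fold change of 0.79 (limma adjusted p = 0.00375) and *MVD* one of 0.76 (limma adjusted p = 0.00371). With KO clone 2 left out, 4 members rose as in the full comparison, against 7.78% of all tested genes. With KO clone 3 left out, *ACACB* joined the 4 and 2 members fell, *SCD5* and *ELOVL6*. In that fit 1227 of 12773 tested genes rose and 910 fell. That clone 1 differs from clones 2 and 3 was not tested, since each clone is 1 library.

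**Figure D3:**
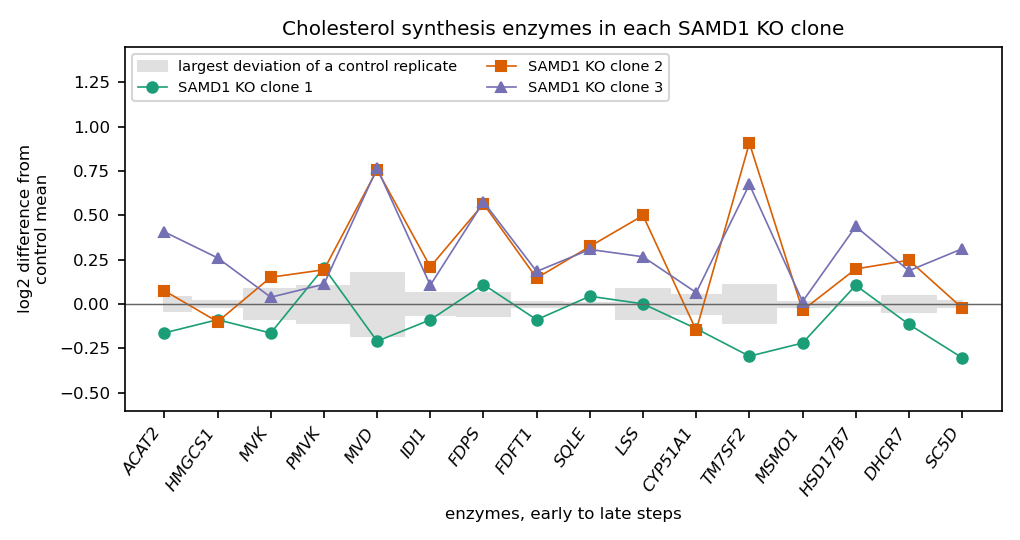
Log2 difference of each *SAMD1* KO clone from the control mean (y axis) for the 16 cholesterol synthesis enzymes, ordered from early to late steps (x axis). The grey band is the largest deviation of a control replicate from the control mean. Clones 2 and 3 peak together at *MVD*, *FDPS* and *TM7SF2*, where clone 1 stays at 0.11 or below.

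The other enzymes of the route stayed closer to the controls in the mean. *ACAT2*, *HMGCS1*, *MVK*, *IDI1*, *FDFT1*, *CYP51A1*, *MSMO1*, *DHCR7* and *SC5D* had log2 fold changes of −0.08 to 0.11, with limma adjusted p-values of 0.482 to 0.987. *PMVK*, the phosphomevalonate kinase, was the exception among the early steps in that its clones agreed, with 1867, 1851 and 1749 against 1636, 1722 and 1505 in control cells. Its log2 fold change of 0.17 did not pass the test (limma adjusted p = 0.153). *SC5D*, a late desaturase of the sterol ring, gave 5165, 6274 and 7907 in the clones and 6287, 6388 and 6434 in the controls, so that clones 1 and 3 lay on opposite sides.

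*STARD4*, a sterol transport protein, had normalized counts of 14709, 14766 and 15376 in control cells and 14983, 11307 and 19754 in the clones. Clone 2 was the lowest and clone 3 the highest library, and the difference between the means was 0.00 on the log2 scale (standard error 0.18, limma adjusted p = 0.997). The 40 tested genes around *STARD4* on chromosome 5 had a median of −0.66 in clone 2, as a log2 difference from control, against −0.01 in clone 1 and −0.06 in clone 3. Around *HMGCS1*, also on chromosome 5, the median in clone 2 was −0.46. Relative to its neighbours *STARD4* had a log2 fold change of 0.24 (limma adjusted p = 0.144), and *HMGCS1* one of 0.19 (limma adjusted p = 0.239). What underlies the lower chromosome 5 values of clone 2 was not tested.

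In the supply of acetyl-CoA and malonyl-CoA, *ACSS2* rose and was the strongest change among the 38. *ACSS2* (chromosome 20, 34872146 to 34927962, plus strand) encodes the cytosolic and nuclear acetyl-CoA synthetase, which makes acetyl-CoA from acetate, and it is a known SREBP target. Its normalized counts were 6626, 6813 and 6581 in control cells and 9856, 10825 and 10380 in the clones. The groups were far apart and the clones close together, with means of 6673 ± 123 and 10354 ± 485 (SD, n = 3), a ratio of 1.55. This is a log2 fold change of 0.63 (standard error 0.05, 95% interval 0.51 to 0.76, limma adjusted p = 0.000851). It passed with each of the 6 libraries left out in turn, with a log2 fold change of 0.60 to 0.67, and its neighbours on the chromosome had medians of 0.02 to 0.06.

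*ACLY*, which makes the same acetyl-CoA from citrate, gave 31488, 32259 and 31085 in control cells and 30490, 37121 and 34305 in the clones. The groups overlapped through clone 1 (log2 fold change 0.10, limma adjusted p = 0.440). *FASN*, the fatty acid synthase, gave 62213, 76657 and 62578 in control cells and 63474, 96388 and 67848 in the clones. Replicate 2 and clone 2 were high in their groups, and the log2 fold change was 0.16 (95% interval −0.23 to 0.55, limma adjusted p = 0.567). *ACACB* gave 370.6, 352.2 and 341.4 in control cells and 536.9, 446.7 and 423.6 in the clones, all clones above all controls, and fell short of the threshold (log2 fold change 0.40, limma adjusted p = 0.0617, DESeq2 adjusted p = 0.0261). *ACACA* lay the other way, with a log2 fold change of −0.13 and no overlap (limma adjusted p = 0.177). *ME1*, which supplies NADPH, ranged from 5281 in clone 1 to 8527 in clone 3 around the controls at 6194 to 6663 (limma adjusted p = 0.785).

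*SCD* rose and was the gene with the highest mean count of all tested genes. *SCD* (chromosome 10, 100347233 to 100364826, plus strand) encodes the enzyme that makes oleate and palmitoleate from saturated fatty acids. Its normalized counts were 226145, 235791 and 231831 in control cells and 279074, 338503 and 312145 in the clones. All clones were above all controls, with means of 231256 ± 4849 and 309907 ± 29778 (SD, n = 3). This is a log2 fold change of 0.42 (standard error 0.10, 95% interval 0.19 to 0.65, limma adjusted p = 0.0331). *SCD* alone took 0.554% to 0.580% of the reads of control libraries and 0.687% to 0.867% of those of KO libraries. All 38 members together took 1.84% to 1.91% and 1.93% to 2.44%.

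The other desaturases and elongases did not rise, and the median of the 7 in the group was −0.12 on the log2 scale. *SCD5* gave 2004, 1998 and 1932 in control cells and 1237, 1387 and 1767 in the clones. All clones were below all controls, clone 1 the most (log2 fold change −0.45, standard error 0.12, limma adjusted p = 0.0553). *ELOVL6*, which extends palmitate to stearate, gave 4901, 5124 and 5090 in control cells and 2824, 3528 and 4536 in the clones. The order of the clones was that of *SCD5* (log2 fold change −0.50, standard error 0.15, limma adjusted p = 0.0755). DESeq2 gave adjusted p-values of 0.0140 for *SCD5* and 0.0221 for *ELOVL6*. Both passed in limma with KO clone 3 left out, where 7.12% of all tested genes fell (log2 fold changes of −0.59 and −0.67, limma adjusted p = 0.00447 and 0.00800). Clone 3 was the clone nearest the controls for both, so leaving it out was bound to widen the difference. *SCD* and *SCD5* thus lay on opposite sides of the controls in all 3 clones, and only the rise of *SCD* passed the test in the full comparison.

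*FADS1*, the delta-5 desaturase of polyunsaturated fatty acids, had all clones below all controls with a log2 fold change of −0.21 (limma adjusted p = 0.144). *FADS2*, the delta-6 desaturase, overlapped (log2 fold change −0.11, limma adjusted p = 0.504). These genes overlap on opposite strands of chromosome 11, and since the strand setting of the counting is not given in the sources used here, their reads cannot be told apart with certainty. *ELOVL1*, which extends very long chains, gave 11991, 12040 and 12101 in control cells and 7900, 12122 and 14112 in the clones. Its controls were nearly equal while clone 1 was far below and clone 3 above them (log2 fold change −0.12, limma adjusted p = 0.707). *ELOVL5*, of the polyunsaturated series, had all clones above all controls by a log2 fold change of 0.10 (limma adjusted p = 0.203).

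Of the 3 long-chain acyl-CoA synthetases, which couple fatty acids to coenzyme A, *ACSL1* and *ACSL3* rose and *ACSL4* did not. *ACSL1* (chromosome 4, 184755595 to 184826818, minus strand) gave 4668, 4393 and 4588 in control cells and 5363, 5623 and 5432 in the clones. The clones were close together and above all controls (log2 fold change 0.27, standard error 0.05, 95% interval 0.15 to 0.38, limma adjusted p = 0.0159). *ACSL3* (chromosome 2, 222860942 to 222944639, plus strand), an enzyme of the endoplasmic reticulum and lipid droplets, gave 12923, 12707 and 13450 in control cells and 14827, 16685 and 16182 in the clones. The groups did not overlap, clone 2 being highest (log2 fold change 0.29, standard error 0.06, 95% interval 0.14 to 0.43, limma adjusted p = 0.0249). The 40 tested genes around *ACSL3* were also higher in the clones, with medians of 0.12, 0.19 and 0.23, and with these removed its log2 fold change was 0.10 (limma adjusted p = 0.212). *ACSL4*, which prefers arachidonate, gave 6480, 6392 and 6481 in control cells and 6077, 6295 and 6557 in the clones (log2 fold change −0.03, 95% interval −0.15 to 0.08, limma adjusted p = 0.702).

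The rises of *SCD*, *ACSL1* and *ACSL3* rested on all 3 control replicates. With any 1 control left out, *ACSS2* alone was past the threshold, where 2.93%, 3.32% and 3.05% of all tested genes rose without control replicates 1, 2 and 3. *SCD* then had limma adjusted p-values of 0.133 to 0.158, *ACSL1* of 0.0773 to 0.0881 and *ACSL3* of 0.0873 to 0.126, with log2 fold changes that stayed between 0.24 and 0.43.

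**Figure D4:**
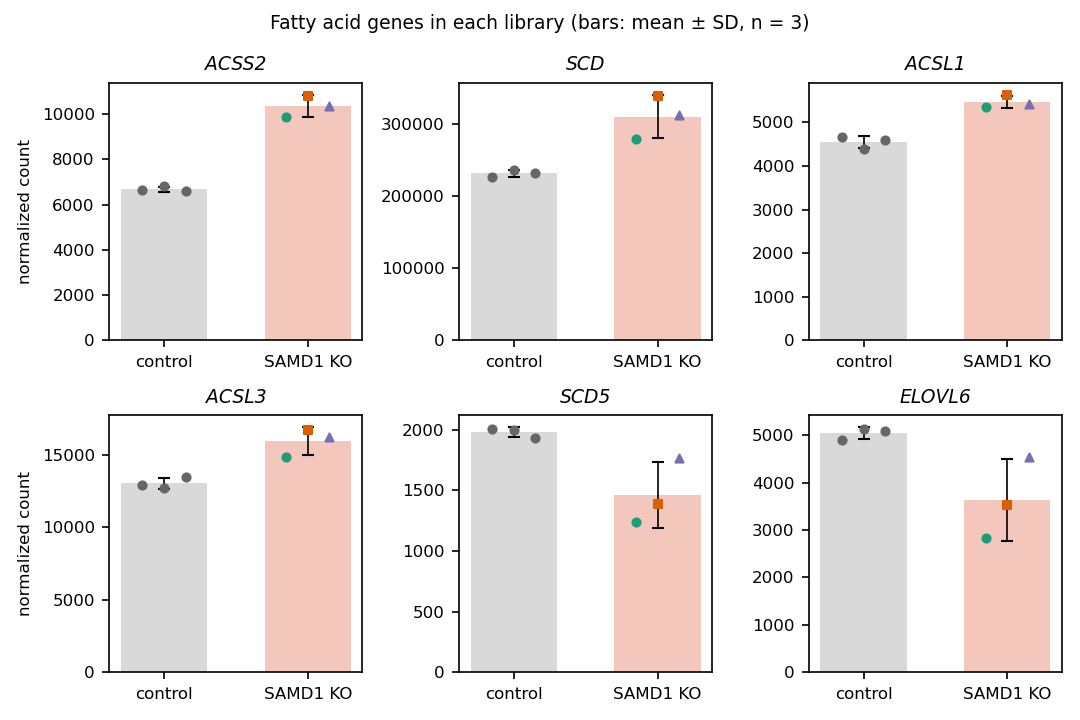
Normalized counts (y axis, from 0) of 6 genes of fatty acid metabolism in control and *SAMD1* KO cells. Bars are means with the SD of 3 libraries, grey points the control replicates, and the green circle, orange square and purple triangle KO clones 1, 2 and 3. *ACSS2*, *SCD*, *ACSL1* and *ACSL3* are higher in every clone, and *SCD5* and *ELOVL6*, which did not pass the test, are lower in every clone.

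Genes of the neighbouring lipid pathways were taken from 4 further lists, and up to 4 genes with the smallest p are named from each. The counts of each list in the full comparison stand beside 8.32% of all tested genes that rose and 4.7% that fell. Of 16 other genes of SREBP processing and sterol synthesis, 2 rose and 2 fell, with a median log2 fold change of −0.05. *MBTPS2*, the site-2 protease that cuts SREBP free, rose from 1660, 1743 and 1729 to 2419, 2605 and 2575 (log2 fold change 0.57, limma adjusted p = 0.00165). *EBP*, a sterol isomerase, rose from 4542, 4262 and 4275 to 5339, 5490 and 6042 (log2 fold change 0.37, limma adjusted p = 0.0120). Both lie on the X chromosome among genes that were also higher, with neighbour medians of 0.29 to 0.45 in the clones. Relative to these neighbours *MBTPS2* had a log2 fold change of 0.20 (limma adjusted p = 0.0709) and *EBP* one of −0.06 (limma adjusted p = 0.530).

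*RNF145*, a sterol-responsive ubiquitin ligase of the endoplasmic reticulum, fell from 8411, 8546 and 8486 to 5523, 4368 and 5341 (log2 fold change −0.75, limma adjusted p = 0.00310). It lies on chromosome 5, where its neighbours had a median of −0.64 in clone 2, and relative to them it still fell, by 0.50 on the log2 scale (limma adjusted p = 0.00453). *LBR*, a nuclear envelope protein and sterol C14 reductase like TM7SF2, fell from 17498, 16896 and 17364 to 13821, 14088 and 14187 (log2 fold change −0.30, limma adjusted p = 0.00815). The 3 clones were close together for *LBR*, whereas those of *TM7SF2* spanned a 2.3-fold range. The call of *LBR* was lost with control replicate 1 or 3 left out, and that of *EBP* with control replicate 2 or 3 left out (limma adjusted p of 0.0622 to 0.0723).

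Of 25 other genes of fatty acid and glycerolipid synthesis, 20 were tested, and 0 rose and 0 fell in limma. At an unadjusted limma p below 0.05, 0 were higher and 1 was lower, *HACD2*, a dehydratase of fatty acid elongation (log2 fold change −0.20, limma adjusted p = 0.0934). *OXSM*, *HACD1* and *LPIN1* had the next smallest p, with log2 fold changes of 0.21, −0.19 and 0.12. edgeR and DESeq2 also gave 0 and 0.

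Of 12 genes of sterol uptake, efflux and the LXR receptors, 4 rose and 1 fell, with a median of 0.12. *ABCG1* and *ABCA1*, which export cholesterol and are known LXR targets, rose from low levels. *ABCG1* went from 18.3, 18.6 and 17.2 to 49.4, 73.4 and 84.5 (log2 fold change 1.85, standard error 0.25, limma adjusted p = 0.00478), and *ABCA1* from 50.3, 55.8 and 58.4 to 121, 128 and 80.0 (log2 fold change 0.96, standard error 0.21, limma adjusted p = 0.0291). *VLDLR*, a lipoprotein receptor, rose from 760.7, 679.0 and 776.6 to 1310, 1309 and 1375 (log2 fold change 0.85, standard error 0.08, limma adjusted p = 0.00108). *MYLIP*, a ubiquitin ligase of lipoprotein receptors and also a known LXR target, fell from 735.5, 750.4 and 754.9 to 500.3, 554.7 and 525.3 (log2 fold change −0.50, limma adjusted p = 0.00706). *LRP1*, a receptor of wide specificity that was outside the 4 and named after its value was seen, was the remaining riser (log2 fold change 0.33, limma adjusted p = 0.0438), and its call was lost with each library but KO clone 2 left out. All 3 clones lay on the same side of the controls for each of these genes. The choice by small p, or after the value was seen, makes that likely. For *SREBF1*, another known LXR target, the groups overlapped and the test was not passed. The *ABCA1* rise was lost with any 1 control or with KO clone 2 left out (limma adjusted p of 0.0601 to 0.129), and the fall of *MYLIP* with control replicate 3 left out (limma adjusted p = 0.0536).

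Of 22 genes of fatty acid oxidation, 21 were tested, 3 rose and 1 fell, with a median of 0.04. *CPT1A*, which passes acyl-CoA into the mitochondria and sets the rate of oxidation, rose from 1493, 1594 and 1503 to 4512, 3477 and 3862, a ratio of 2.58 (log2 fold change 1.36, standard error 0.10, limma adjusted p = 0.000502). It passed with each library left out and was larger than any change among the 38 synthesis genes. *ACADS*, the short-chain acyl-CoA dehydrogenase, rose from 324.9, 419.7 and 349.4 to 559.7, 775.8 and 559.5 (log2 fold change 0.78, limma adjusted p = 0.0215). *MLYCD*, which degrades malonyl-CoA, rose by a log2 fold change of 0.37 (limma adjusted p = 0.0423), and *ACADM*, the medium-chain dehydrogenase, fell by 0.27 on the log2 scale (limma adjusted p = 0.0386). The call of *ACADS* was lost with control replicate 1 or 3 left out (limma adjusted p of 0.0995 to 0.106). Those of *MLYCD* and *ACADM* were lost with any 1 control or with KO clone 2 or 3 left out (limma adjusted p of 0.0608 to 0.189). With KO clone 1 left out, where 11.3% of all tested genes rose and 8.83% fell, 5 oxidation genes rose and 2 fell. In the same fit 3 genes of SREBP processing and sterol synthesis rose and 4 fell, 3 of the other fatty acid and glycerolipid genes rose and 1 fell, and 5 genes of sterol uptake, efflux and the LXR receptors rose and 1 fell.

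**Figure D5:**
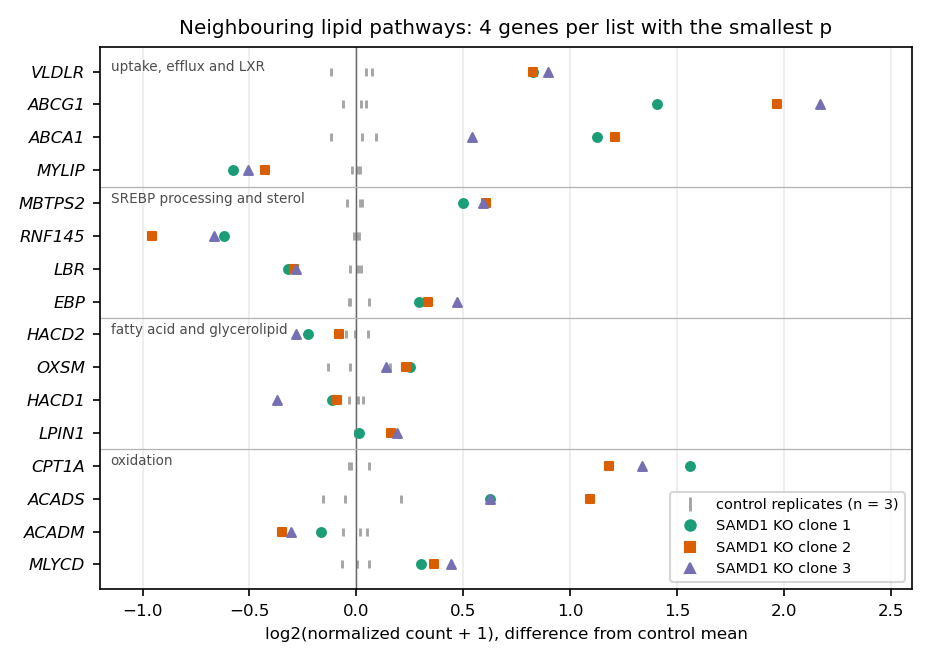
Difference of each library from the control mean on the log2(normalized count + 1) scale (x axis) for the 4 genes with the smallest p in each neighbouring lipid list (y axis). Grey bars are control replicates and coloured symbols the 3 *SAMD1* KO clones. *ABCG1* and *CPT1A* lie farthest to the right, and *RNF145*, *MYLIP*, *LBR* and *ACADM* lie to the left of their controls in every clone.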

How the data were processed

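RNA was extracted from 3 replicates of PaTu8988t control cells and 3 *SAMD1* KO clones and sequenced from a stranded mRNA library kit. The authors aligned the reads with RNA-STAR to hg38, counted them per gene and normalized them with DESeq2, and the submitters' processing notes name featureCounts. The deposited signal is a normalized count (reads over the library's size factor). Whole reads could be recovered, since 100% of values lay within 0.01 of a multiple of 1 step in every library. In KO clone 1 that step was close to 1, where it is harder to tell from rounding. A deposited table of the authors' own comparison (fold change and p-value) was not used.

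The 38 members, the other lists and the tests were chosen with earlier results of these data known. limma 3.58.1 (lmFit, eBayes with trend) in R 4.3.3 was fitted to log2(normalized count + 1), two-sided, over all 12773 genes whose mean reached 10, with Benjamini-Hochberg adjustment over all of them. The script was tested on simulated data. Fully described are members past a threshold, the SREBP regulators and members whose KO clones differ by over 2-fold, and of each other list up to 4 genes with the smallest p. The fit was repeated with pseudocounts of 0.1 and 10, with no filter or a mean of at least 50, 75th percentile scaling, the replicate number as a block, each library left out, edgeR 4.0.16 and DESeq2 1.42.0 on recovered reads, and removal of the median of 20 tested neighbours on each side. The same alternatives for the 4 other lists were added after seeing the data. Positions are from GENCODE 44 on GRCh38 (99.3% of tested genes), and promoter windows from RefSeq on GRCh38.p14. RPKM was computed from recovered reads and MANE Select lengths. Other steps used Python 3.11.15, pandas 2.3.3 and SciPy 1.17.1.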

Additional observations from a re-analysis of the deposited data

How the results depend on the processing

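*ACSS2* was past the threshold under every alternative run, and the median of all tested genes ranged from −0.01 to 0.0131. Of 570 values of single members under the alternatives, 539 kept their side of the threshold, 12 lost it, 19 gained it and 0 changed sign past it. With 1 library left out, the number of members that rose ranged from 1 to 11 and the number that fell from 0 to 2. The number called higher then ranged from 1 to 4, the number called lower from 0 to 2, and the median log2 fold change from 0.04 to 0.16. Over all 12753 to 12787 genes tested in these fits, 375 to 1446 rose and 128 to 1128 fell. Of these genes 569 to 859 were called higher and 177 to 369 lower. DESeq2 gave 2 members that fell. Removing the neighbours' median gave 6 members that rose, with *FDPS*, *HSD17B7* and *ACACB* gained and *ACSL3* lost, 1 that fell, *SCD5*, and 1 called lower, *ELOVL6*, and turned *EBP* from 0.37 to −0.0646. The causes of these shifts were not tested. With the replicate number as a block, 2 members rose instead of 4, *ACSS2* and *ACSL1*. Of all 12773 tested genes 825 rose and 392 fell with the block, against 1063 and 600 without it. Control and KO libraries of the same number correlated at 0.0391, 0.1338 and 0.0318 in their deviations from the group means. Control replicate 3 correlated slightly better with KO clone 1 (0.036). Deviations within a group of 3 depend on each other, so these values cannot tell whether libraries of the same number share a batch. With 3 libraries a group, changes much smaller than the clone spread were not detectable.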
